A study of Mus musculus with 2 samples.

Results

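The genes described here are 7 transcription regulators that B lymphocytes use to set and keep their identity, namely Pax5, Ebf1, Spib, Pou2af1, Bcl11a, Mef2c and Irf8. They were chosen by symbol, and all 7 were found in both deposited tables, among 30457 genes listed in either table. Pax5 is a paired-domain factor that commits precursors to the B lineage, and Ebf1 is the early B-cell factor that acts upstream of and together with it. Spib encodes Spi-B, an ETS factor related to PU.1, and Pou2af1 encodes OCA-B, a coactivator that joins the octamer factors Oct-1 and Oct-2 on immunoglobulin promoters. Bcl11a is a zinc finger factor needed for early lymphoid development, Mef2c is a MADS-box factor that B cells use in proliferation after antigen receptor signals, and Irf8 is an interferon regulatory factor that works with PU.1 in B cells and also directs dendritic cell and monocyte development. In the spleen, mature B cells are mostly follicular, with a smaller marginal zone population that borders the blood sinus, and plasma cells shut down much of this program when they begin to secrete antibody.

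Single-cell RNA sequencing on the BD Rhapsody nanowell system was carried out on spleen cells of female C57BL/6J mice that carried a subcutaneous Lewis lung carcinoma, injected at 10 weeks of age. All mice had received 200 μg of an antibody to CD4 on days 5 and 9, spleens were taken on day 12, and a pool of 3 spleens was kept frozen until 2000 thawed cells were loaded on 1 cartridge. Equal parts of the beads went to TAS-Seq, which tails the cDNA with terminal transferase and a chain terminator, and to the BD WTA kit, a random-priming protocol. There was thus 1 library per method from the same pooled cells, with no untreated or tumour-free group, so no test was possible, the values describe these libraries, and differences between mice cannot be seen.

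The filtered libraries held 732 TAS-Seq cells with 15378 to 262041 reads and 708 BD WTA cells with 12343 to 291602 reads, and no cell barcode was shared. Both were clustered together after each gene had been scaled within its library, with the 7 factors and the other listed regulators left out of the clustering. The B-like class comprised 405 TAS-Seq and 363 BD WTA cells and carried all 5 of its markers (Cd79a, Cd79b, Ms4a1, Cd22 and Ighd). The T-like class held 274 and 281 cells, the NK-like class 21 and 26 cells, and the myeloid-like class 25 and 28 cells, of which 10 and 11 formed a neutrophil-like cluster led by genes such as S100a8 and S100a9. A cluster of 7 and 10 cells stayed unnamed and entered no class. Levels are given as pooled CPM, the reads of a gene per 1000000 reads summed over the cells of a class, with an exact 95% Poisson interval. The tables count reads without molecular identifiers, so every interval covers counting error only and is far narrower than the differences between cells.

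The 7 genes lie on 6 chromosomes and are all annotated as protein-coding (GENCODE vM21, build GRCm38). Pax5 occupies chr4:44524757-44710487 on the minus strand, Ebf1 chr11:44617317-45008091 on the plus strand, and Spib chr7:44525993-44532071 on the minus strand. The plus-strand genes are Pou2af1 at chr9:51213708-51240080, Bcl11a at chr11:24078056-24174123, Mef2c at chr13:83504034-83667080 and Irf8 at chr8:120736358-120756694. Of all 31-base words in their annotated transcripts, at most 1.57% (Spib) also occurred in a transcript of another gene, and none did for Pax5, Pou2af1 and Irf8. On the same strand, Mir5120 overlaps Pax5, Gm47828 overlaps Pou2af1 and Gm20388 overlaps Irf8, so reads of these 3 members could be shared with an overlapping gene, depending on the counting.

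To show the DNA from which the factors are transcribed, the 250 bases before the RefSeq transcription start (build GRCm38.p6) were searched for core sequences that some of these factors and their partners recognise. The searched words were the octamer ATTTGCAT, the PU.1 and Spi-B core GAGGAA, the EBF half-site pair CCCNNGGG, the IRF repeat (GAAA, any 2 bases, GAAA) and the MEF2 core TATTTATA, on both strands. RefSeq gave 11 promoter entries for the 7 genes. The PU.1 and Spi-B core occurred in 3 of the 11 (2 entries of Mef2c and 1 of Ebf1), compared with 23.3% of 32851 promoters. CCCNNGGG was present in 1 entry (Spib) against 11.8% of all promoters, and the IRF repeat in 1 entry (Ebf1) against 2.98%. The octamer and the MEF2 core were in none of the 11, against 1.60% and 1.56%. The Spib entry and the most upstream Mef2c entry are shown because they carry a match, the Pax5 entry because that gene marks the lineage, and the most upstream Irf8 entry because its levels left the pattern of the other 6. They are printed 5′ to 3′ along the gene, with matches in capitals; the Spib match is a pair of overlapping copies of CCCNNGGG. The intervals are chr7:44532072-44532321 (minus strand) for Spib, chr13:83503784-83504033 (plus strand) for Mef2c, chr4:44710695-44710944 (minus strand) for Pax5 and chr8:120736108-120736357 (plus strand) for Irf8.
Spib: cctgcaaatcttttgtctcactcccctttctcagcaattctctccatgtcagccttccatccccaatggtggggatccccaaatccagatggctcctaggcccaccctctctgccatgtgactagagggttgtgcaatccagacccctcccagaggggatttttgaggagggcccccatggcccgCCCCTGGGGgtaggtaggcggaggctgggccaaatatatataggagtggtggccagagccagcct
Mef2c: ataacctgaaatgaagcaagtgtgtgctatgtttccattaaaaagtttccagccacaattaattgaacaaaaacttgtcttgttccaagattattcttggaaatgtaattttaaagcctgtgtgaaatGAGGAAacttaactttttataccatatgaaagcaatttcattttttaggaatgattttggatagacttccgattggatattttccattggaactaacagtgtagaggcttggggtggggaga
Pax5: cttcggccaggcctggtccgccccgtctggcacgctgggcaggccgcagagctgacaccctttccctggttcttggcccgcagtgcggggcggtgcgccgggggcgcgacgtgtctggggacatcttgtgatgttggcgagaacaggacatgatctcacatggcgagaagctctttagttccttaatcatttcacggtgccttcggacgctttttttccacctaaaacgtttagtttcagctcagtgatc
Irf8: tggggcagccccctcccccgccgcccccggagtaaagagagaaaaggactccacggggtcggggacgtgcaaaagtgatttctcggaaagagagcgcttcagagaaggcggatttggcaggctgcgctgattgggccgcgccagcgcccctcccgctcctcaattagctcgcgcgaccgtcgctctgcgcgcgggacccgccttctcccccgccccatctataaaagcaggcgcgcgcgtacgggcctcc
A match is a description of letters and shows neither binding nor its absence.

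All 7 factors were at least 4-fold higher in B-like than in T-like cells in both libraries. Among all genes with at least 10 CPM in either class, this fold was passed by 6.64% of 10000 genes in the TAS-Seq library and by 6.94% of 9798 genes in the BD WTA library. The median log2 ratio of the 7 members was 6.42 and 7.56, respectively, beside 0.10 and -0.01 over all genes tested. Since B-like cells were named by B-cell markers, a B-cell factor had reason to be high in them, and the counts describe how uniformly the members followed the class.

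Pax5 stood at 698 CPM (687 to 710) in TAS-Seq B-like cells and at 628 CPM (615 to 640.3) in BD WTA B-like cells. In T-like cells Pax5 was at 10.8 CPM (9.17 to 12.5) and 3.32 CPM (2.38 to 4.50). These levels correspond to log2 ratios of 6.02 (5.80 to 6.25) and 7.56 (7.12 to 8.04). Ebf1, its partner in lineage commitment, was at 400.1 CPM (391 to 409) and 421 CPM (411 to 431) in B-like cells and at 3.96 CPM (3.02 to 5.10) and 0.324 CPM (0.0882 to 0.829) in T-like cells. The BD WTA value in T-like cells rested on 4 reads, and the log2 ratios were 6.66 (6.29 to 7.05) and 10.34 (8.99 to 12.22). For Pax5 and Ebf1 the T-like level was at most 1.54% of the B-like level in either library.

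The ETS factor Spib was at 397 CPM (388 to 406) and 391 CPM (381 to 401) in the B-like cells of the TAS-Seq and BD WTA libraries, a log2 difference between libraries of 0.02 that became -0.13 with TMM factors. T-like cells held 4.62 CPM (3.60 to 5.84) of Spib in the TAS-Seq library and 2 reads in all, or 0.162 CPM (0.0196 to 0.585), in the BD WTA library. The log2 ratios of Spib were 6.43 (6.09 to 6.79) and 11.24 (9.38 to 14.28). The coactivator gene Pou2af1 was at 429.9 CPM (421 to 439) and 393 CPM (383 to 403) in B-like cells. It kept 14.7 CPM (12.8 to 16.8) and 9.07 CPM (7.47 to 10.9) in T-like cells, which gave ratios of 4.87 (4.68 to 5.07) and 5.44 (5.17 to 5.72) on the log2 scale. In the BD WTA library that was the smallest B-to-T ratio among the 7, and in the TAS-Seq library only Irf8 had a smaller one.

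Bcl11a was at 424 CPM (415 to 433) and 334 CPM (325 to 343) in B-like cells and at 4.95 CPM (3.89 to 6.20) and 2.35 CPM (1.57 to 3.37) in T-like cells. Its paralog Bcl11b, a T-cell commitment factor, had the opposite arrangement, with 2.44 and 6.86 CPM in B-like cells against 306 and 349.8 CPM in T-like cells. Mef2c was at 679.9 CPM (668 to 692) and 544 CPM (532 to 556) in B-like cells. In T-like cells Mef2c was at 5.81 CPM (4.66 to 7.15) and at 2 reads, or 0.162 CPM (0.0196 to 0.585), and the log2 ratios of 6.87 (6.57 to 7.19) and 11.71 (9.86 to 14.76) were the largest in both libraries. Its paralog Mef2d differed little between the classes, at 145 and 108 CPM in B-like cells and 84.5 and 64.9 CPM in T-like cells. Irf8 was at 546 CPM (535 to 556) and 369 CPM (359.6 to 379) in B-like cells and at 21.0 CPM (18.7 to 23.4) and 5.99 CPM (4.70 to 7.52) in T-like cells, with log2 ratios of 4.70 (4.54 to 4.87) and 5.94 (5.61 to 6.30).

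The reads of the members in T-like cells were set beside those of other B-cell genes. In the TAS-Seq library the T-like level was 0.85% to 3.85% of the B-like level for the 7 factors and 0.83% to 1.92% for the 5 B-cell markers. The BD WTA library gave 0.030% to 2.31% for the factors and 0.082% to 0.78% for the markers. The light chain gene Igkc, one of the most abundant B-cell transcripts, stood at 0.94% and 0.10%. In the BD WTA library Mef2c (0.030%), Spib (0.041%) and Ebf1 (0.077%) lay below every marker. In the TAS-Seq library Pou2af1 (3.42%) and Irf8 (3.85%) exceeded every marker, and in the BD WTA library so did the same genes, at 2.31% and 1.62%. In the BD WTA library the reads in T-like cells lay in few cells, with the 112 reads of Pou2af1 in 7 cells, the 74 of Irf8 in 6 and the 41 of Pax5 in 2, whereas the 163 reads of Pax5 in the TAS-Seq library were spread over 98 of 274 cells. Irf8 and Pou2af1 were less evenly spread there. The 5 TAS-Seq T-like cells with most reads held 67.3% of the 318 reads of Irf8 and 45.3% of the 223 of Pou2af1. For Pax5 that share was 23.9%. Whether the reads in T-like cells came from those cells or from free RNA was not tested.

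**Figure D1:**
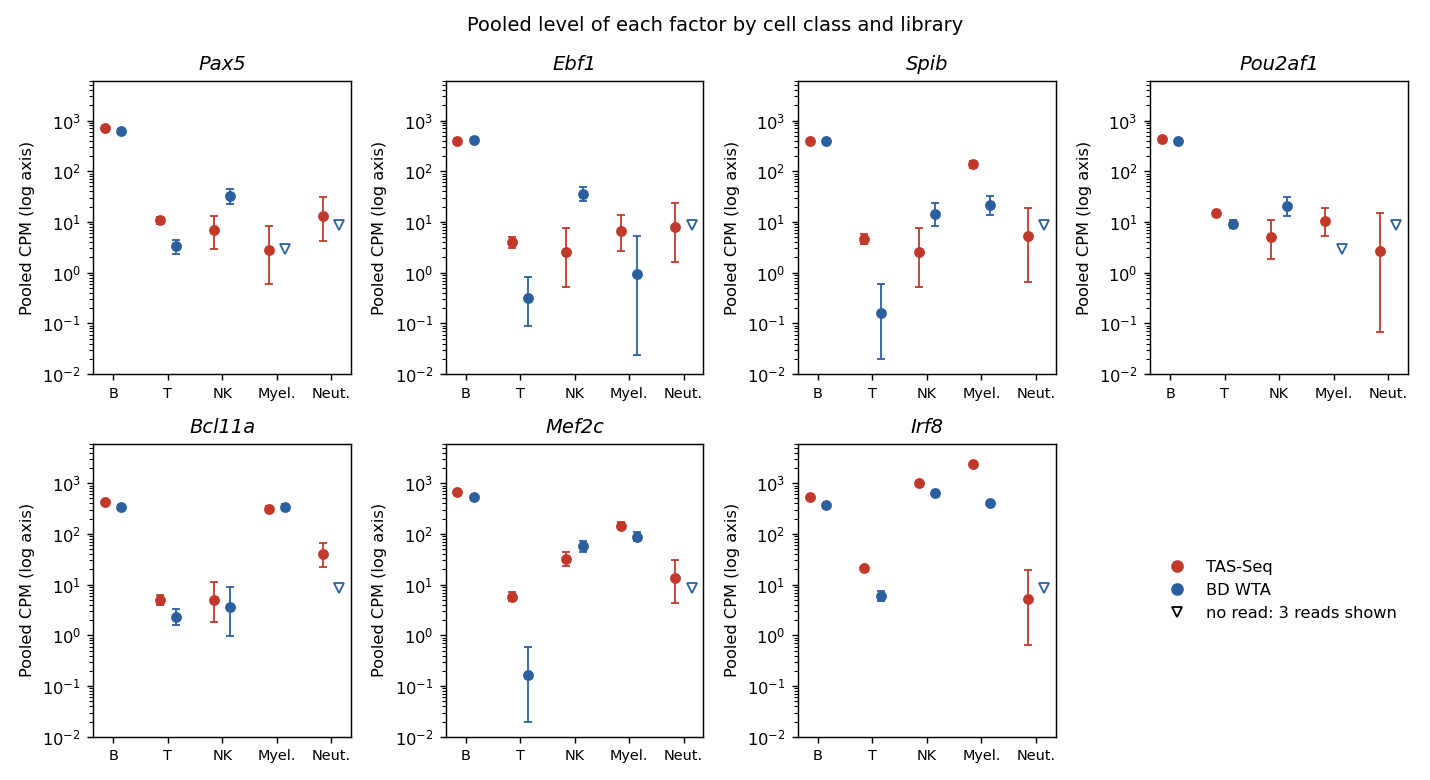
Pooled CPM (log axis) of each factor in B-like, T-like, NK-like, myeloid-like cells other than neutrophils, and neutrophil-like cells, in the TAS-Seq (red) and BD WTA (blue) libraries, with exact 95% Poisson intervals. Open triangles mark classes with no read, drawn at the level that 3 reads would give; Irf8 is higher in NK-like cells (1007 and 650.3 CPM) than in B-like cells (546 and 369 CPM), and Bcl11a in BD WTA myeloid-like cells (343 CPM) is level with B-like cells (334 CPM) within the intervals.

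Set against the T-like, NK-like and whole myeloid-like classes, 6 of the 7 members had their highest level in B-like cells in each library, and the exception was Irf8 both times. With neutrophil-like cells left out of the myeloid-like class, the number was 6 in the TAS-Seq and 5 in the BD WTA library, where Bcl11a was at 343 CPM (309 to 381) in myeloid-like cells against 334 CPM (325 to 343) in B-like cells. The share of all genes that were highest in B-like cells was not computed, so these counts have no background beside them. In NK-like cells Irf8 was at 1007 CPM (950.5 to 1066) in the TAS-Seq library and 650.3 CPM (604 to 699) in the BD WTA library, 0.88 and 0.82 above B-like cells on the log2 scale. Irf8 reads were found in 18 of 21 and 15 of 26 NK-like cells, so the level did not rest on 1 cell. In the BD WTA library it was uneven, since single cells held 158, 154 and 112 of the 725 reads. The lowest, median and highest NK-like cell had 0, 821 and 3509 CPM of Irf8 in the TAS-Seq library and 0, 91.9 and 3297 CPM in the BD WTA library. At least 4-fold higher in B-like than in NK-like cells were the other 6 members in both libraries, as were 17.1% of the genes tested in the TAS-Seq and 20% (2021 of 10130) in the BD WTA library.

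Mef2c was the only other member above 10 CPM in TAS-Seq NK-like cells, at 32.3 CPM (22.8 to 44.3), and it was at 56.5 CPM (43.4 to 72.3) in BD WTA NK-like cells. Pax5 in NK-like cells was at 6.79 and 32.3 CPM, and Ebf1 at 2.55 and 35.9 CPM. The higher BD WTA values came from 1 cell, which held 36 reads of Pax5, 40 of Ebf1, 15 of Spib, 23 of Pou2af1, 4 of Bcl11a and 19 of Mef2c next to 154 of Irf8, in 114305 reads. That cell clustered with the NK-like cells, and whether it held a B cell as well was not tested. Without it no read of Pax5, Ebf1 or Pou2af1 and 1 read of Spib remained in the NK-like cells. The log2 ratio of B-like over NK-like cells then moved from 4.28 to at least 7.71 for Pax5, from 3.55 to at least 7.13 for Ebf1 and from 4.25 to at least 7.03 for Pou2af1, each bound set at 3 reads.

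In the myeloid-like cells other than neutrophils, Irf8, Bcl11a, Mef2c and Spib had reads, whereas Pax5, Ebf1 and Pou2af1 were at most at 10.5 CPM. Bcl11a reached 317 CPM in 15 TAS-Seq cells and 343 CPM in 17 BD WTA cells, against 424 and 334 CPM in B-like cells. In the TAS-Seq library 291 of its reads lay in the 4 cells with plasmacytoid dendritic markers described below, and 41 in the other 11. Mef2c was at 145 and 88.0 CPM and Spib at 136 and 22.0 CPM, with all 23 BD WTA reads of Spib in 1 cell. Pax5 had 3 reads in the TAS-Seq cells and none in the BD WTA cells, where 3 reads of 1045182 would be 2.87 CPM. In the neutrophil-like cells of the BD WTA library no read of any member was found in 352404 reads, which allows up to 8.51 CPM at 3 reads, and in those of the TAS-Seq library the members had 1 to 15 reads each in 378117.

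Irf8 in the myeloid-like cells differed widely between the libraries, at 2387 CPM in the TAS-Seq and 411 CPM in the BD WTA cells. Most of the TAS-Seq reads lay in 4 cells that carried at least 3 of the plasmacytoid dendritic cell markers Siglech, Ccr9, Bst2, Cox6a2 and Klk1 with 5 or more reads. These cells held 347, 509, 572 and 860 reads of Irf8, and together 5334 CPM (5118 to 5557). They also held Bcl11a in every cell (61 to 84 reads, 678 CPM pooled) and Spib in 3 of the 4 (3 to 47 reads). Plasmacytoid dendritic cells are known to depend on Irf8, Bcl11a, Spib and Tcf4. A single BD WTA cell met the same definition, with 32 reads of Bcl11a, 7 of Irf8 and none of Spib in 19947 reads. Leaving these cells out, Irf8 was at 346 CPM in the 11 remaining TAS-Seq cells and at 413 CPM in the 16 remaining BD WTA cells. Bcl11a was at 66.2 and 319 CPM in the same remaining cells. The cells were grouped after their values had been seen.

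Among the remaining myeloid-like cells, the 2 BD WTA cells with at least 5 reads of each of Xcr1 and Clec9a, markers of the dendritic cells that cross-present antigen, had 36 and 270 reads of Irf8 and none of the other 6 members. The cells with at least 5 reads of each of C1qa, C1qb and C1qc, complement genes of macrophages, held 0, 27 and 31 reads of Irf8 in 3 TAS-Seq cells and 0, 0, 0 and 39 reads in 4 BD WTA cells. Bcl11a in the BD WTA myeloid-like cells was uneven, since 224 of 359 reads came from 1 cell. With so few cells of each kind, these values describe single cells.

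**Figure D2:**
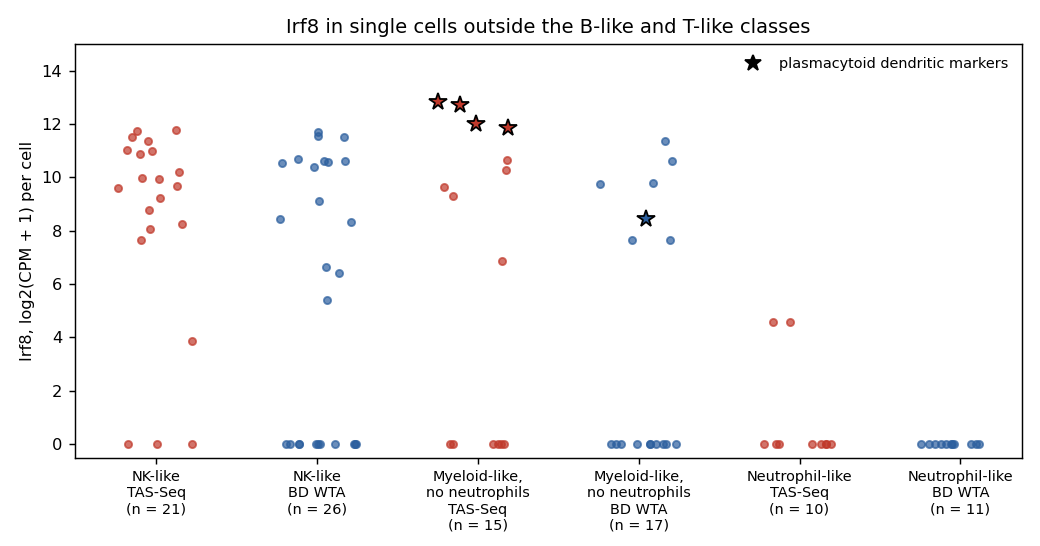
Irf8 as log2(CPM + 1) in each NK-like, myeloid-like (without neutrophils) and neutrophil-like cell of the TAS-Seq (red) and BD WTA (blue) libraries; each point is 1 cell, and stars mark cells with plasmacytoid dendritic markers. The 4 starred TAS-Seq cells lie above all other cells, while 15 of 26 BD WTA and 18 of 21 TAS-Seq NK-like cells lie above 0.

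Single B-like cells showed the members far less evenly than the pooled levels. In TAS-Seq B-like cells the median CPM per cell was 498 for Pax5 (quartiles 83.8 and 1007), 506 for Mef2c (61.7 and 1069) and 161 for Ebf1 (0 and 617). In BD WTA B-like cells the medians were 225 for Pax5 (0 and 1074), 204 for Mef2c (0 and 915) and 34.5 for Ebf1 (0 and 616). Bcl11a and Irf8 had a median of 0 in the BD WTA library, where 170 and 172 of 363 B-like cells held a read, and of 183 and 364 CPM in the TAS-Seq library. Among cells with a read, the median of Pax5 was higher in the BD WTA library (931 CPM) than in the TAS-Seq library (639.7 CPM), which had reads in more cells. The same order held for Ebf1 (594 and 420.1 CPM) and Spib (622 and 469.9 CPM), while Pou2af1 was about level (459 and 464 CPM).

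To compare the share of cells at equal depth, each cell was thinned to 20000 reads, which kept 391 of 405 TAS-Seq and 330 of 363 BD WTA B-like cells. All 7 members were then seen in a larger share of TAS-Seq B-like cells. This is the direction of 89.8% of all genes seen in at least 5 B-like cells of either library, so it is not particular to these factors. Pax5 was seen in 80.8% (76.6 to 84.6, exact binomial 95% interval) of TAS-Seq and 61.2% (55.7 to 66.5) of BD WTA B-like cells. The widest gap was that of Irf8, with 73.1% (68.5 to 77.5) and 47.3% (41.8 to 52.8), and the narrowest that of Pou2af1, with 66.2% (61.3 to 70.9) and 55.5% (49.9 to 60.9). The median gap of the members was 15.5 percentage points, beside 2.97 for all genes tested. The genes tested include any seen in at least 5 B-like cells of either library, and rarely seen genes leave little room for a gap. Genes of like detection were not compared, so the medians do not show that the members gained more than such genes. Without thinning, the shares of Pax5 were 83.5% and 60.1%.

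The same shares in T-like cells, which should lack most of these genes, showed how far reads occur outside B cells. At 20000 reads, 6.04% to 17.4% of 265 TAS-Seq T-like cells held a read of a given member, with Pax5 the most frequent. In 261 BD WTA T-like cells the range was 0.38% to 2.30%. With a minimum of 5 reads, the TAS-Seq T-like shares were at most 1.89%, and those in B-like cells were still 46.8% to 66.0% in the TAS-Seq and 35.2% to 53.3% in the BD WTA library. At that minimum the share in B-like cells was still higher in the TAS-Seq library for each of the 7 members.

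**Figure D3:**
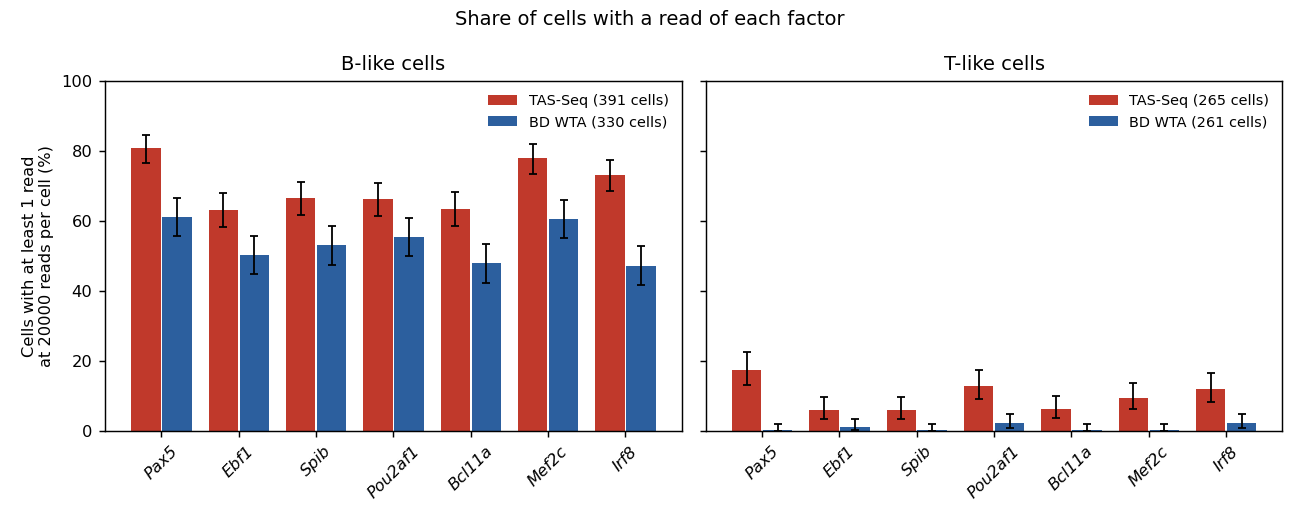
Share of B-like (left) and T-like (right) cells with at least 1 read of each factor at 20000 reads per cell, in the TAS-Seq (red) and BD WTA (blue) libraries, with exact 95% binomial intervals. In B-like cells the TAS-Seq bars run from 63.2% to 80.8% and the BD WTA bars from 47.3% to 61.2%, and in T-like cells the highest bar is Pax5 in the TAS-Seq library at 17.4%.

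Most B-like cells showed several of the factors together. At 20000 reads, a B-like cell held reads of a median of 5 members (quartiles 4 and 6) in the TAS-Seq and of 4 members (3 and 5) in the BD WTA library. All 7 were seen in 35 of 391 TAS-Seq cells (8.95%) and in 5 of 330 BD WTA cells (1.52%). At least 4 were seen in 85.7% and 54.8% of the B-like cells, and no member was seen in 0 TAS-Seq and 3 BD WTA cells. T-like cells had a median of 1 and 0 members, and at least 2 were seen in 14.7% of TAS-Seq and 0.38% of BD WTA T-like cells. With at least 5 reads per member, no T-like cell of either library held 2 or more, whereas 95.9% and 82.7% of B-like cells did.

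**Figure D4:**
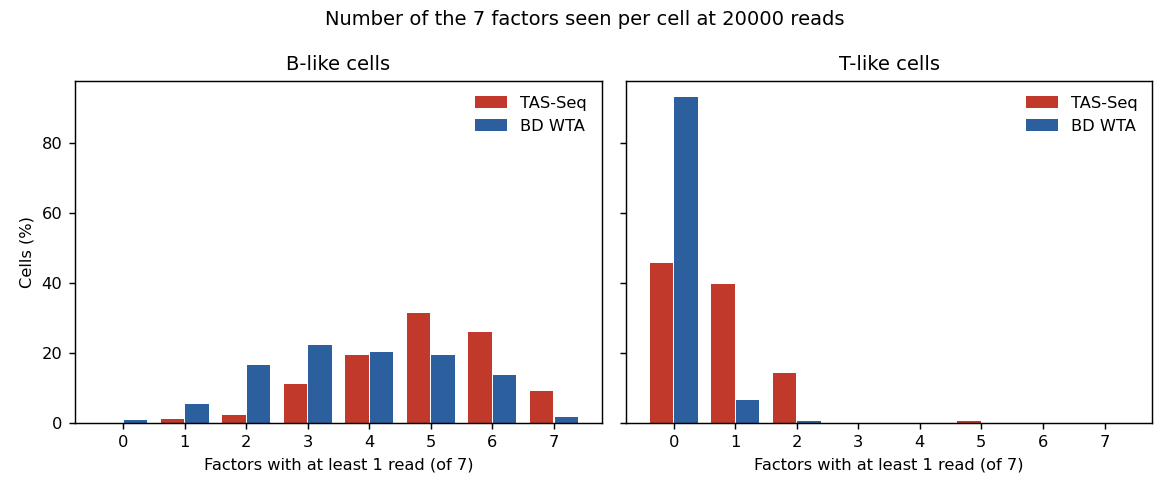
Share of B-like (left) and T-like (right) cells by the number of the 7 factors with at least 1 read at 20000 reads per cell, in the TAS-Seq (red) and BD WTA (blue) libraries. The tallest bars of B-like cells are at 5 factors (31.5%) in the TAS-Seq and at 3 factors (22.1%) in the BD WTA library, and those of T-like cells at 0 factors (45.7% and 93.1%).

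Within the B-like class, members were next compared between the pooled levels of both libraries. The ratio of TAS-Seq over BD WTA ranged from -0.07 for Ebf1 to 0.56 for Irf8 on the log2 scale, and no member passed a 2-fold difference, which 20.5% of 9841 genes did. The median over those genes was 0.16, and scaling with TMM factors lowered every ratio by the same amount, so that Irf8 stood at 0.42 and Bcl11a at 0.20. Pou2af1 was 0.13 without TMM factors and changed sign to -0.02 with them. Irf8 was the member with the largest difference in level and in share of cells, at 546 and 369 CPM.

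Of the B-like clusters, 1 carried all 6 marginal zone markers (Cr2, Cd1d1, Dtx1, Cd9, S1pr3 and Fcrl5) and is called marginal zone-like, with 69 TAS-Seq and 49 BD WTA cells after 5 cells described below were set aside. The other 335 and 310 B-like cells had higher Fcer2a and Icosl but only these 2 of 5 follicular markers, and were not named. Mef2c was lower in the marginal zone-like cells, at 454 against 775 CPM in the TAS-Seq library and at 345 against 652.5 CPM in the BD WTA library. The log2 ratios of Mef2c were -0.77 (-0.83 to -0.71) and -0.92 (-1.0 to -0.84), and -0.66 and -0.93 when cells were weighted equally. It was the 1 member past a 1.5-fold lower level, a limit that 19.4% of genes passed in the TAS-Seq and 27.0% in the BD WTA library, so such a difference was common between these groups. The share of cells with a Mef2c read at 20000 reads was 70.6% against 79.5% and 58.3% against 60.8%, and their intervals overlap.

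The other members differed less between the B-like groups. Pax5 was 656 against 725 CPM and 541 against 709 CPM, and Irf8 was 496 against 571 CPM and 317 against 415 CPM, both lower in marginal zone-like cells of each library. Ebf1, Spib and Bcl11a lay within 0.07 of equality on the log2 scale in the TAS-Seq library and between -0.32 and -0.18 in the BD WTA library. Pou2af1 went in opposite directions, at -0.11 (-0.18 to -0.04) and 0.17 (0.09 to 0.25). In the BD WTA library the direction of 3 members turned when cells were weighted equally, to -0.25 for Pou2af1, 0.11 for Spib and 0.03 for Bcl11a. In the TAS-Seq library the small ratios of Ebf1 and Bcl11a, whose intervals include 0, also changed sign, to -0.02 and 0.02. Marginal zone-like cells had more reads, with a median of 80784 in their cluster against 42596 and 30563 in the other B-like clusters, and the part of this depth in the differences was not tested.

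**Figure D5:**
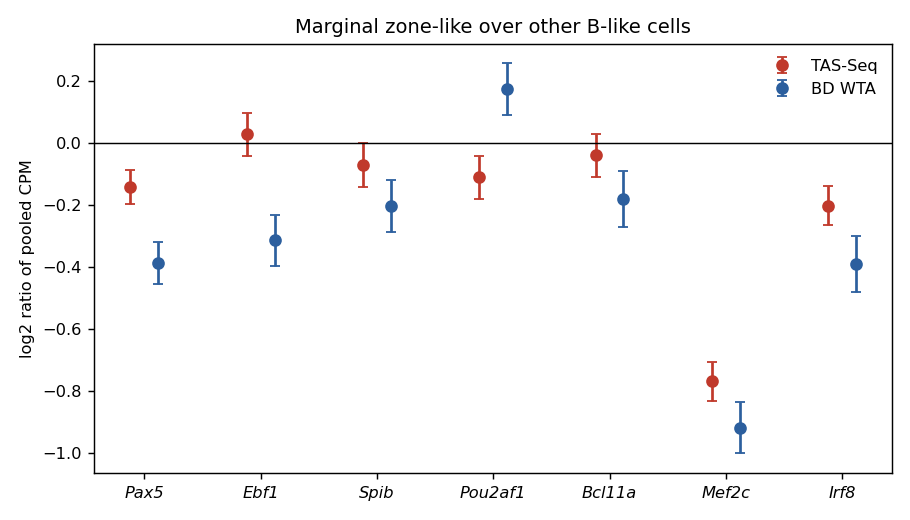
Log2 ratio of pooled CPM of each factor in marginal zone-like over other B-like cells in the TAS-Seq (red) and BD WTA (blue) libraries, with 95% intervals for counting error; the line marks equality. Mef2c is lowest in both, at -0.77 and -0.92, and Pou2af1 lies on either side of the line.

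The 5 cells set aside had at least 1000 reads of Jchain, which joins secreted IgM and IgA, and clustered with the marginal zone-like cells. In the 4 of them from the BD WTA library Pax5, Spib and Bcl11a had no read in 808307 reads, where 3 reads would be 3.71 CPM. Against their B-like levels in that library this is at least 169-fold lower for Pax5, at least 105-fold for Spib and at least 89.9-fold for Bcl11a. Ebf1 had 6 reads, in 1 cell, and Irf8 had 21 reads, in 1 cell. Pou2af1, by contrast, had 50, 117, 129 and 246 reads, or 671 CPM (615 to 729), above its 393 CPM in all B-like cells. Mef2c had 0, 20, 32 and 49 reads, or 125 CPM (102 to 152).

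The Jchain-high cell of the TAS-Seq library differed, since it held reads of all 7 members, from 23 of Ebf1 and 24 of Bcl11a to 131 of Pou2af1 and 158 of Mef2c, in 262041 reads. It was the deepest cell of its library, and whether it held more than 1 cell was not tested. Irf4 had 13 reads in the TAS-Seq cell and 0, 32, 41 and 68 in the BD WTA cells, and Prdm1, the repressor that ends the B-cell program in plasma cells, had at most 2 reads in any of the 5. The cells were chosen after their values had been seen, and with 5 cells no level is more than that of these cells.

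Of the 18 other B-lineage factors listed, 7 in the TAS-Seq and 6 in the BD WTA library were at least 4-fold higher in B-like than in T-like cells, and none was 4-fold lower. Their median log2 ratio was 1.48 and 1.60, well under the 6.42 and 7.56 of the members. Klf2, which governs B-cell and T-cell trafficking, was at 1269 and 1329 CPM in B-like cells and at 562 and 681 CPM in T-like cells. Foxp1 was 723 against 279 CPM and 584 against 268 CPM, and Ets1 and Ikzf1 were slightly lower in B-like than in T-like cells in both libraries (-0.08 and -0.45 for Ets1, -0.28 and -0.51 for Ikzf1 on the log2 scale). Spi1, which encodes PU.1, was at 82.1 and 55.7 CPM in B-like cells, at most 1.12 CPM in T-like cells, and at 369 and 502 CPM in myeloid-like cells. Irf4 was at 95.8 and 98.6 CPM in B-like and 9.70 and 1.13 CPM in T-like cells. The partner of OCA-B, Pou2f2 (Oct-2), named after its values were seen, was at 590.0 and 457 CPM in B-like and 43.2 and 36.4 CPM in T-like cells.

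All 17 of the measured targets and partners in B cells were at least 4-fold higher in B-like than in T-like cells in both libraries, with medians of 5.86 and 7.12 on the log2 scale; the list was drawn up from B-cell genes, and its direction is no separate evidence. Cr2, the complement receptor, was at 891 and 922 CPM, Fcmr, the IgM Fc receptor, at 949 and 1064 CPM, and the tetraspanin Cd37 at 1086 and 1003 CPM in B-like cells. Cd37 was the least restricted of these 3, with 201 and 217 CPM in T-like cells.

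The T and NK factors had the opposite direction, with 9 of 14 at least 4-fold lower in B-like cells in the TAS-Seq and 8 of 13 in the BD WTA library. Their median log2 ratio was -4.67 and -4.81, beside 0.10 and -0.01 over all genes tested. The share of all genes that were 4-fold lower was not computed. Tcf7 was at 9.03 and 5.13 CPM in B-like against 808 and 821 CPM in T-like cells, and Lef1 at 10.4 and 3.91 CPM against 533 and 467 CPM. Satb1 differed less, at 158 and 119 CPM against 455 and 366 CPM, and Id2, an inhibitor of E proteins, peaked in NK-like cells at 2067 and 1334 CPM. Zeb2 (both libraries) and Ets2 (TAS-Seq), named after their values were seen, were at least 4-fold higher in B-like cells.

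Of the 6 measurable myeloid factors, 3 (Spi1, Klf4 and Zeb2) were 4-fold higher and 1 (Id2) 4-fold lower in B-like than in T-like cells in each library. Klf4 was at 322 and 146 CPM in B-like cells and 640.1 and 424 CPM in myeloid-like cells, and Nr4a1 at 127 CPM in the B-like cells of both. Of the plasma cell factors, Xbp1 was at 61.3 and 155 CPM and Prdm1 at 8.68 and 7.82 CPM in B-like cells. Xbp1, Irf4 and Prdm1 gave 1 of 2 tested genes past 4-fold in the TAS-Seq and 2 of 2 in the BD WTA library. The BD WTA level of Xbp1 leaned on the 4 Jchain-high cells, which held 193, 246, 391 and 521 reads. With these set aside it was at 80.8 CPM in marginal zone-like and 69.3 CPM in other B-like cells. T-like cells of that library had 37.6 CPM, so neither group was 4-fold higher for Xbp1. Among 8 measurable paralogs of the members, Spi1 and Irf4 were 4-fold higher in B-like cells, Bcl11b was 4-fold lower, and 5, with Irf1, Irf2, Irf9 and Mef2d among them, lay between. Irf2 was at 267 and 388 CPM in B-like and 130.3 and 187 CPM in T-like cells. The lists share Spi1, Irf4, Id2, Zeb2 and Bcl11b, so their counts are not separate.

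Over the 8 combinations of the 4 classes and both libraries, Pax5 and Pou2af1 were each among the 3 genes most like the other in log2(CPM + 1) (Pearson r = 0.98 for the pair, from 8267 genes with at least 20 CPM in a class of each library, class markers left out). Pax5 was also most like Scd1, a fatty acid desaturase (r = 0.99). Ebf1 was most like Gm50318 (0.99), Spib like the light chain gene Iglc3 (0.98), Pou2af1 like Ralgps2 (0.99) and Bcl11a like H2-DMb1 (0.99). Mef2c was most like Gm42031 (0.96) and Irf8 like Gpd2 (0.98). The 8 points share cells and libraries and mostly separate B-like cells from the rest, so many genes reach such values, which are given as a description.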

How the data were processed

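Single-cell RNA-seq of mouse spleen was analysed from the gene by cell tables of 1 TAS-Seq and 1 BD WTA library, grouped by their sample labels. The deposited values are counts, made by the authors as whole numbers of reads per gene and barcode, without molecular identifiers and not normalized. The submitters' processing notes name cutadapt 2.10, Bowtie2 2.4.2 and R 3.6.3 with builds GRCm38 and GRCh38. The methods of the study describe forward-strand mapping to Ensembl transcripts and selection of barcodes at the inflection point of ranked totals. A step that subtracts background is given there too. No source says that it was run on these tables, and it could lower reads outside B cells. Reads rather than molecules were counted, so values also depend on amplification.

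Of 736 and 716 barcodes, 732 and 708 with at least 500 genes and at most 25% mitochondrial reads were kept. Depth was 38656790 and 31608259 reads in all, with medians of 46557 and 38426 per kept cell. Cells were clustered with scanpy 1.11.5 (4409 variable genes after 80 listed genes had been left out, 20 principal components, 15 neighbours, Leiden resolution 1 with leidenalg 0.10.2). To be named, a cluster needed 3 or more raised markers of a class (by 1 or more on the log2(CPM + 1) scale and seen in at least 30% of its cells), more than of any other class, with the B and T markers at least 1 lower than in the remaining cells where they belong to another lineage. This naming rule was set after the clusters had been seen. Doublets were kept, and Scrublet called 1 in each library, too few to show that the caller worked. Ratios are of pooled CPM, with genes of at least 10 CPM in either group, and intervals were computed with scipy 1.17.1. TMM factors came from edgeR 4.0.16 in R 4.3.3. With 1 library per method no test was run. Ratios and thinning were tested on simulated data.

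The genes named were the 7 members, the 4 genes of each list with the highest level, Spi1, Irf4, Prdm1, Bcl11b, Mef2d, and the 3 genes most like each member. A gene that this rule names is not reported here. The members and lists were chosen with earlier results of these data known. Alternatives were other classes, resolutions, filters, depths, read minimums, weights and scalings. The listed genes Faim3 and Ebf4 did not match a symbol and were not used here. Protein sequences were not used here.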

Additional observations from a re-analysis of the deposited data

Results flagged for a closer look

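In 4 comparisons a factor had opposite directions in the libraries, and with 1 library per method none of these differences was tested. The log2 ratio of Irf8 in B-like over myeloid-like cells was -1.69 in the TAS-Seq and 0.26 in the BD WTA library. The ratio of Irf8 in myeloid-like over NK-like cells was 0.80 and -1.08, respectively. Pou2af1 in NK-like over T-like cells stood at -1.53 in the TAS-Seq library, from 6 and 223 reads, and at 1.19 in the BD WTA library, from 23 and 112 reads, of which all 23 came from 1 NK-like cell. Pou2af1 in marginal zone-like over other B-like cells was -0.11 and 0.17.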

How the results depend on the processing

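All 7 members stayed at least 4-fold higher in B-like than in T-like cells under 24 alternatives, counted in each library separately. They were seen in a larger share of TAS-Seq B-like cells under 11. The number with its highest level in B-like cells was 5 to 7 under 20, again counted in each library separately. It was 5 in the BD WTA library without neutrophil-like cells, an alternative chosen after seeing the data. It was 7 in the TAS-Seq library clustered alone and in the BD WTA library with classes from single-cell markers, where fewer classes were left to compare. Clustered alone, the TAS-Seq library gave only B-like and T-like classes. Its NK-like and myeloid-like classes were thus not found in that alternative. The B-to-T log2 ratios ran from 4.37 to 11.77 over 126 values, 1 for each member, library and alternative, with none below 0. The median number of members per B-like cell was 4 in the TAS-Seq library at a minimum of 5 reads, and 3 in the BD WTA library at 10000 reads per cell, at a minimum of 2 reads and at a minimum of 5 reads. Signs turned for Pou2af1 in TAS-Seq over BD WTA B-like cells with TMM factors (-0.016). The ratio of Spib in that comparison, 0.02 with an interval that includes 0, also fell below 0 with TMM factors and with cells weighted equally. In alternatives chosen after seeing the data, signs turned in 2 further sets. Without the cells with plasmacytoid dendritic markers, Irf8 in the TAS-Seq library was 1.33 for B-like over myeloid-like and -2.22 for myeloid-like over NK-like cells. With cells weighted equally, the BD WTA ratios of marginal zone-like over other B-like cells were 0.11 for Spib, -0.25 for Pou2af1 and 0.025 for Bcl11a, and the TAS-Seq ratios of Ebf1 and Bcl11a, near 0 at first, became -0.018 and 0.022. The cause of the other changes of sign was not tested, while the Irf8 changes follow from leaving out 4 cells that held 2288 of 2504 reads. No paired analysis was possible because a single library was made with either method. Depth limits the classes with few cells most, and a level in 10 to 28 cells can be set by 1 of them.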

Other observations

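The cluster left unnamed, with 7 TAS-Seq and 10 BD WTA cells, entered no comparison. It held Pax5 at 259.5 and 169 CPM, Ebf1 at 47.6 and 103 CPM, Spib at 200.3 and 201 CPM and Pou2af1 at 156 and 312 CPM. Bcl11a was at 210.1 and 249 CPM, Mef2c at 205 and 191 CPM and Irf8 at 391 and 71.6 CPM. These levels lay between those of T-like and B-like cells of the same library for every member. The genes raised most in the cluster included Stmn1, Top2a, Pclaf and Mki67, genes of dividing cells, and the T markers Cd3e, Trbc2 and Lck were raised too. Whether the cluster held a mix of dividing B and T cells was not tested.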
